A study of Mus musculus with 16 samples.

Results

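Macrophages sorted from the cornea of adult mice were compared with microglia sorted from the brain. The comparison takes 8 of the 16 RNA libraries of the series, 4 from each of these populations, chosen by the population that the sample labels and the column headers of the count table name. All animals were C57BL/6 mice aged 8 to 10 weeks, with no other allele and no treatment named. Cornea macrophages were stained for CD11b, CD45, F4/80 and CD64 before sorting, and every cornea library came from 10 pooled mice. For the brain, the text at hand gives neither the antibodies nor the dissociation, and the pool size of the brain libraries was treated as unknown because their descriptions name another tissue. The cornea was digested with 2 mg/mL collagenase D at 37 °C in 2 steps of 1.5 h. The 4 brain libraries were sequenced in lane 3, together with cornea library 4, and cornea libraries 1 to 3 in lane 2. The other 8 libraries, 4 of retinal microglia and 4 of bone marrow monocytes, entered the fit and serve below for context.

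Macrophages of the cornea lie among its stromal cells and nerves under a surface epithelium that faces the outside, where they take up debris, sense microbes and take part in wound repair. Microglia are the macrophages of the brain parenchyma. They settle there before birth, renew locally, depend on the cytokines CSF1, IL-34 and TGF-beta, and are known by purinergic receptors that sense nucleotides and by the transcription factor Sall1. Perivascular, meningeal and other border macrophages are known instead by the mannose receptor, haemoglobin scavenging and, in part, MHC class II.

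Levels are given as CPM, the read count of a gene in a library brought to a total of 1000000 reads and scaled by TMM, as mean ± SD over the 4 libraries of a population, and fold changes are those of cornea over brain in edgeR's quasi-likelihood fit. In bulk RNA, fewer cells that express a gene and less RNA per cell cannot be told apart. A gene was called at a Benjamini-Hochberg adjusted p under 0.05 over all 15754 genes tested. The p-values measure only the spread between libraries of a population, estimated over all 16 libraries. For the cornea these are pools of mice. Total counts were 12570116 to 21756558 reads in the cornea libraries and 8677418 to 12848012 reads in the brain libraries. Spearman correlations across genes, which are not independent replicates, were 0.952 to 0.976 between cornea libraries, 0.977 to 0.982 between brain libraries and 0.688 to 0.722 between a cornea and a brain library. Cornea libraries 1 and 2 share the number in their titles, and nothing in the labels says whether they came from separate pools of mice. The chi-square of their counts per degree of freedom was 23.06, the lowest of the 6 cornea pairs (up to 76.3) and above that of every brain pair (14 to 21.28). They were counted as separate libraries, and with both summed to 1 library 5245 genes were higher and 5138 lower.

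Most expressed genes differed between the populations. Of 15754 genes, 5317 (33.8%) were higher in cornea macrophages and 5209 (33.1%) lower, 66.8% in all, and 4240 (26.9%) were at least 2-fold higher and 4024 (25.5%) at least 2-fold lower. The 4 cornea libraries lay above all 4 brain libraries for 4999 genes (31.7%) and below them for 4827 (30.6%). Against this background a single call carries little weight, so the gene groups below are read against those shares. The lists and their members were chosen with earlier results of these data known. The share of a list that was called thus describes the list and is no independent evidence. The scaling moved these counts. With total counts only, the median of all genes moved to -0.67 on the log2 scale. Then 3564 genes were higher and 7611 lower, so that 31.9% of the calls were higher in place of 50.5%. The plot of mean levels shows the breadth of the difference.

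**Figure D1:**
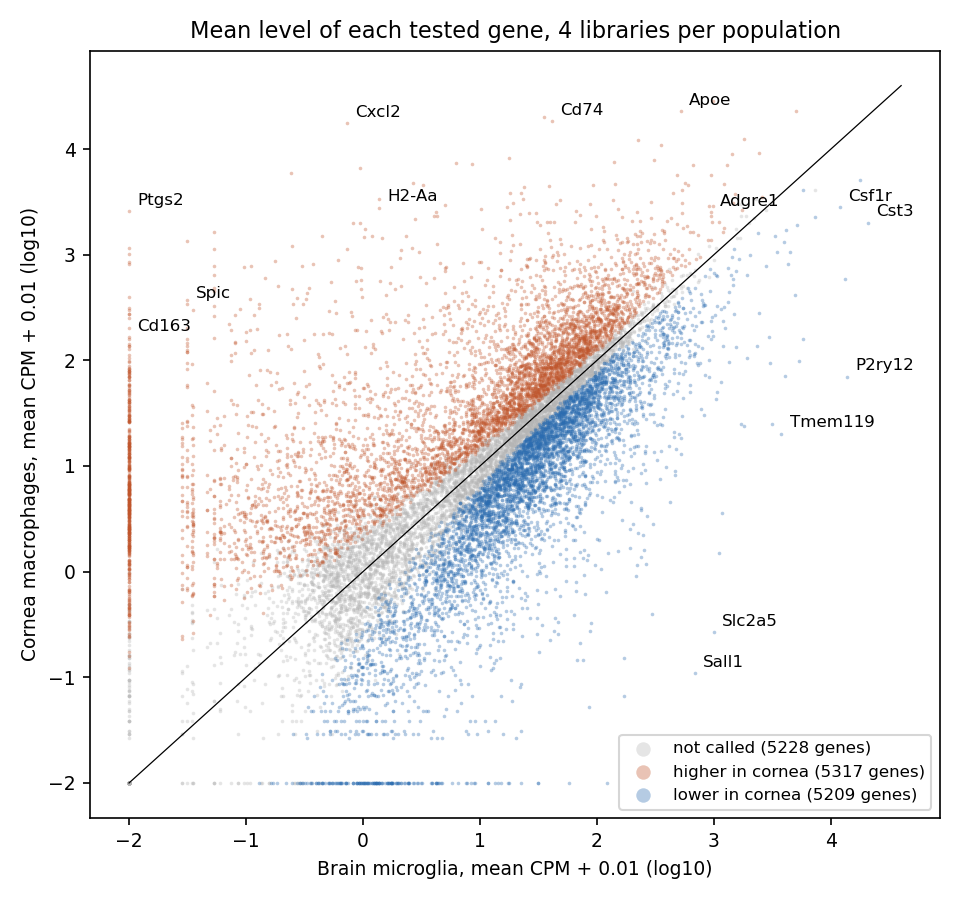
Mean level of each of 15754 tested genes in brain microglia (x axis) and cornea macrophages (y axis), as log10 of CPM plus 0.01, with genes called higher or lower in the cornea coloured and the line of equal level drawn. Cxcl2, Ptgs2, Cd74 and H2-Aa lie far above the line, P2ry12, Tmem119, Sall1 and Slc2a5 far below it.

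The most abundant transcripts differed between the populations. Per kilobase of gene length, the cornea libraries were led by the ferritin heavy chain Fth1 (33142 CPM per kilobase), the class II invariant chain Cd74 (13099.6), the lipid carrier Apoe (11494), and lysozyme Lyz2 (9549.7). Next came the heme oxygenase Hmox1 (9334), the chemokine Cxcl2 (8462) and the metallothionein Mt1 (7044), beside the predicted genes Gm10116, Gm6977 and Gm23935. In the brain libraries the same scale was led by the protease inhibitor cystatin C, Cst3 (16419 CPM per kilobase). Among those that followed were the lysosomal protease Ctsd (7025), the complement chain C1qb (6769.6), the ADP receptor P2ry12 (5407), cathepsin S, Ctss (5371), Itm2b (3231), C1qc (2652) and the CSF1 receptor Csf1r (2448), and Gm23935. Of the named leaders, Cd74 stood at 29.3 and Cxcl2 at 0.345 CPM per kilobase in brain microglia, and P2ry12 at 27.5 in cornea macrophages.

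The genes used for sorting were present in both populations. Ptprc, which encodes CD45, had 694 ± 75.3 against 395 ± 29.9 CPM, Itgam (CD11b) 644 ± 93.9 against 1391 ± 180.4 CPM, cornea against brain. Adgre1 (F4/80) had 2511 ± 106 against 947 ± 101 CPM and Fcgr1 (CD64) 71.2 ± 10.2 against 322 ± 37.6 CPM. Adgre1 was thus higher in the cornea (log2 fold change 1.41) and Itgam (-1.11) and Fcgr1 (-2.18) lower. Ptprc was called higher (0.81), but with total counts only its log2 fold change was 0.14 and it was not called. Since the cornea cells were selected with antibodies to these 4 proteins, their levels describe the sort as well as the tissue.

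Homeostatic microglia genes were lower in the cornea than in the brain almost without exception: 1 of 27 tested members was higher and 26 lower. Their median log2 fold change was -4.49, beside 0.00 for all genes tested. P2ry12, the receptor through which microglia sense ADP, had 13044, 13931, 13819 and 14268 CPM in the 4 brain libraries and 56.3, 56.8, 66.1 and 101 in the 4 cornea libraries. The groups lay far apart, and cornea library 4 was the highest of its group (log2 fold change -7.62, SE 0.25, adjusted p = 1.45e-13). Tmem119, a membrane protein used to mark microglia, had 3344, 3734, 3767 and 4231 CPM in brain and 19.9, 24.8, 16.2 and 20.2 in cornea libraries, again without overlap (-7.54, SE 0.21). Slc2a5, a fructose transporter, had 0.26 ± 0.435 against 997 ± 96.4 CPM, and the protease inhibitor Serpine2 3.58 ± 1.49 against 1177 ± 97 CPM. Fcrls, an Fc receptor-like gene, had a smaller difference than these, with 1068 ± 69.8 against 3448 ± 519 CPM (-1.69), and so did Csf1r (-2.10). The lysophosphatidylserine receptor Gpr34 (-5.83) had 71.2 ± 18 CPM in the cornea, within the range of P2ry12 there. Gpr84, a receptor for medium-chain fatty acids, was the exception and was higher in the cornea (448 ± 41.7 against 126 ± 18 CPM). P2ry12 lies on chromosome 3, 59216272 to 59262871 and Tmem119 on chromosome 5, 113793729 to 113800516 (GENCODE vM21, build GRCm38).

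Transcription factors of microglia were mostly lower in the cornea. In this list 4 of 17 tested members were higher in the cornea and 12 lower. Sall1, the zinc finger factor that sets microglia apart from other macrophages, had 658, 607, 745 and 737 CPM in the brain libraries, and in the cornea libraries it had 0, 0, 0 and 0.398 CPM. Only cornea library 4 held reads of Sall1, and the groups lay far apart (6 reads in the cornea in all). Sall3, its relative, had 2 reads in all 4 cornea libraries together against 171 ± 13.3 CPM in the brain, a ratio of 4181 with a 95% counting interval of 1157 to 34528. The factors Mef2c (102 ± 14.8 against 899 ± 92.2 CPM), Irf8 (183 ± 36.6 against 519 ± 44 CPM) and the TGF-beta effector Smad3 (44.1 ± 12.8 against 123 ± 28.1 CPM) were also lower in the cornea, by smaller steps. Their log2 fold changes were -3.15, -1.50 and -1.48, and that of Hhex was -3.99. Egr2 (207 ± 55.9 against 3.32 ± 0.821 CPM), Runx1 (418 ± 68.2 against 148 ± 15.9 CPM) and Mef2d (129.8 ± 9.81 against 55.4 ± 5.78 CPM) went the other way.

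Among transcription factors known from other tissue macrophages, 20 of 26 tested members were higher in the cornea and 4 lower (median 2.96). Spic, the factor of red pulp macrophages, had 333, 323, 354 and 363 CPM in the cornea libraries and 1 read in all 4 brain libraries, a ratio of 15679.7 (2814 to 619352). Pparg, the lipid-sensing nuclear receptor of alveolar macrophages, had 178 ± 37.9 against 0.214 ± 0.253 CPM, and the liver X receptor gene Nr1h3 52.6 ± 15.8 against 0.822 ± 0.139 CPM. Klf4 stood at 34.6 ± 3.95 against 3.65 ± 1.85 CPM. Rara, a retinoic acid receptor gene, had no read in the brain and 57.5 ± 8.27 CPM in the cornea, at least 881-fold higher. Maf (76.6 ± 28 against 459 ± 92.8 CPM), Batf3 (0.816 ± 0.42 against 12.5 ± 1.85 CPM) and Rxra (29.9 ± 1.74 against 72.2 ± 12 CPM), in contrast, were higher in brain microglia.

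Border macrophage genes went the other way from the microglial genes, with 23 of 25 tested members higher in the cornea and 0 lower. Their median log2 fold change was 8.02, or 6.35 with genes that have no brain read set to their lower bound. Mrc1, the mannose receptor, had 1581, 1461, 1680.1 and 1482 CPM in the cornea and 13.1, 14.4, 20.5 and 27.7 CPM in the brain libraries, with no overlap (log2 fold change 6.35, SE 0.27, adjusted p = 2.53e-12). Cd163, the haemoglobin scavenger receptor, had 106, 216, 169.8 and 176 CPM in the cornea libraries and no read in any brain library, at least 2594-fold higher, and cornea library 2 was the highest. The platelet factor Pf4 (879.9 ± 78 against 0.165 ± 0.0894 CPM), the transglutaminase F13a1 (769.9 ± 273 against 1.73 ± 2.16 CPM) and Ms4a7 (1506 ± 63.8 against 0.438 ± 0.484 CPM) were all higher. Lyve1, the hyaluronan receptor of a perivascular subset, was low even in the cornea, at 7.83 ± 2.85 CPM.

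Of the genes of monocytes and cells derived from them, 17 of 24 tested members were higher in the cornea and 0 lower. Ly6c2 and Chil3, known from circulating monocytes, were at trace levels in both populations, with Ly6c2 at 0.182 ± 0.293 against 0.285 ± 0.231 CPM and Chil3 at 0.556 ± 0.457 against 0.786 ± 1.19 CPM, neither called with all libraries. Ccr2, the receptor for CCL2, was higher in the cornea (54.5 ± 8.8 against 5.19 ± 1.38 CPM), as was Plac8 (7.06 ± 6.51 against 0.617 ± 0.253 CPM). The largest fitted rises were those of Ahnak, a scaffold protein, with 860.3 ± 196 CPM in the cornea and no read in the brain (at least 12796-fold), of Clec4e and of S100a6. Clec4e, a lectin that senses mycobacterial lipid, had 1645 ± 138 CPM and 2 reads in all brain libraries (ratio 37451, interval 10367 to 309248). The calcium-binding protein S100a6 had 117 ± 23.3 against 0.1 ± 0.0894 CPM.

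**Figure D2:**
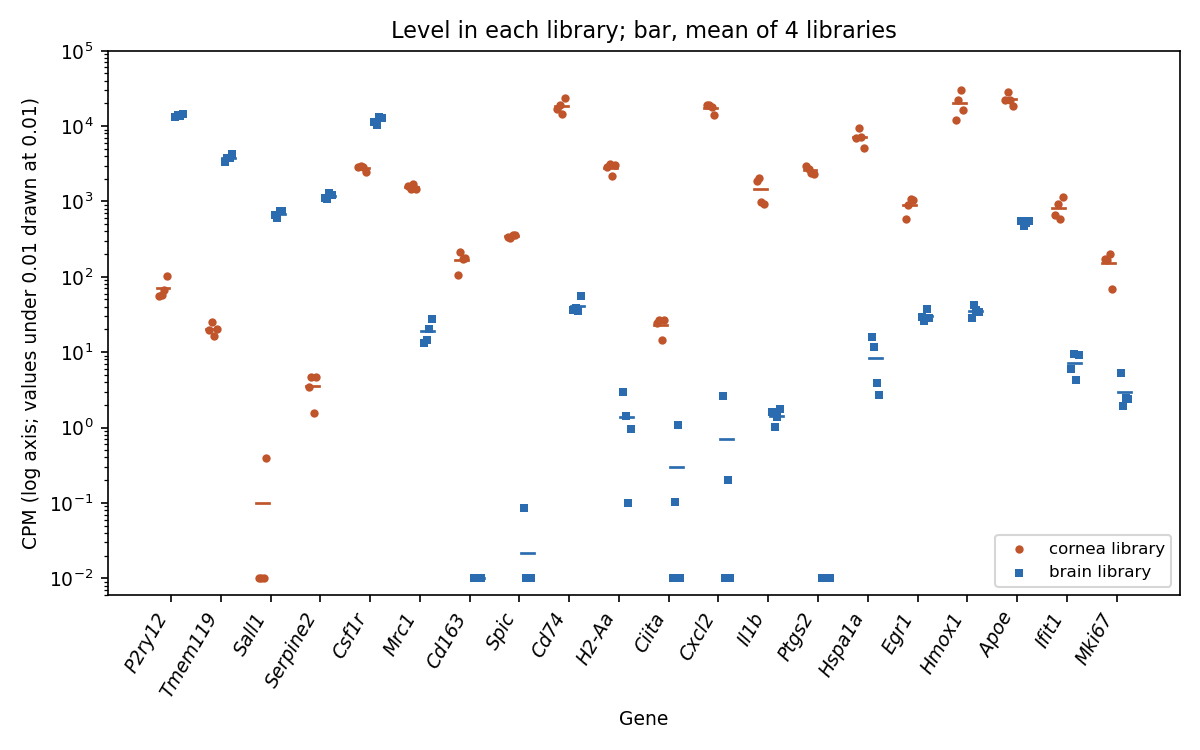
CPM of 20 genes (x axis) in each of the 4 cornea and 4 brain libraries on a log axis, with a bar at the mean, and values under 0.01 drawn at 0.01. For every gene shown the 4 cornea libraries and the 4 brain libraries lie apart, with P2ry12, Tmem119, Sall1, Serpine2 and Csf1r higher in the brain and the others higher in the cornea.

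MHC class II genes went both ways. In the list, 12 of 22 tested members were higher in the cornea and 8 lower, with a median of 0.73. These shares were 54.5% and 36.4%, beside 33.8% and 33.1% of all genes tested. H2-Aa, the alpha chain of I-A, had 2827, 3131, 2146 and 3017 CPM in the cornea libraries and 3, 1.42, 0.099 and 0.942 in the brain libraries, and the groups lay far apart (log2 fold change 10.97, SE 0.58, adjusted p = 3.98e-11). H2-Ab1 (2706 ± 907 against 10.1 ± 0.867 CPM), H2-Eb1 (1489 ± 374 against 1.18 ± 0.616 CPM) and the invariant chain Cd74 (18470.5 ± 3785 against 41.3 ± 9.87 CPM) followed the same pattern. Ciita, the coactivator that switches class II genes on, had 24.2, 26.6, 14.7 and 26.9 CPM in the cornea libraries and 0, 0.102, 1.09 and 0 in the brain libraries. The DO chains H2-Oa (0.487 ± 0.559 against 31.4 ± 5.57 CPM) and H2-Ob (10.5 ± 3.7 against 58.3 ± 4.79 CPM), which restrain peptide loading, and the protease Ctss (2269 ± 64.5 against 7294 ± 561 CPM), which trims the invariant chain, were higher in brain microglia. Other members called lower were H2-DMa and H2-DMb2, chains of the peptide exchange molecule DM, and Rfx5, Rfxank and Rfxap, factors of the class II promoters. Within lane 3, H2-DMa kept its call (log2 fold change -1.08), while H2-DMb2 (-0.56), Rfx5 (-0.75), Rfxank (-0.79) and Rfxap (-0.44) were not called. Cd40, the receptor through which T cells license presenting cells, had 508 ± 96.1 against 0.179 ± 0.215 CPM. Il12b, a subunit of IL-12 and IL-23, had 164 ± 94.3 CPM with 2 reads in the brain (ratio 3894, interval 1078 to 32161). Markers of dendritic and Langerhans cells went both ways, with 8 of 13 tested members higher in the cornea and 4 lower. Among the higher ones were Cd207 (55.4 ± 11.1 CPM, 1 brain read), Xcr1 (42.1 ± 4.99 against 0.452 ± 0.129 CPM), Ccr7 and Zbtb46 (30.3 ± 12 against 8.56 ± 2.42 CPM). Siglech, Batf3, Itgae and Snx22 were lower, and Clec9a had 1 read in the cornea libraries. The part of such cells in the class II, Cd40 and Il12b values was not tested.

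Class II promoters carry a Y box, an inverted CCAAT element bound by NF-Y, close to the start site. The promoter windows of H2-Aa and H2-Eb1 are shown because both genes rose together. Each runs from 250 bases before to 50 bases after the start (RefSeq, GRCm38.p6, whose chromosomes have the same coordinates as GRCm38), with matches to the letters GATTGG on either strand in capitals.
H2-Aa (chr17:34287774-34288073, minus strand): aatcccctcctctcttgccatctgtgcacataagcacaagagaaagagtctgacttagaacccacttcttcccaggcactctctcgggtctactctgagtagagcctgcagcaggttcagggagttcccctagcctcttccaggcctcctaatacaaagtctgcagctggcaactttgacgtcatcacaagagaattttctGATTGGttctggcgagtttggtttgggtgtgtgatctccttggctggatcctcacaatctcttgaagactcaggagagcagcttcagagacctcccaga
H2-Eb1 (chr17:34305617-34305916, plus strand): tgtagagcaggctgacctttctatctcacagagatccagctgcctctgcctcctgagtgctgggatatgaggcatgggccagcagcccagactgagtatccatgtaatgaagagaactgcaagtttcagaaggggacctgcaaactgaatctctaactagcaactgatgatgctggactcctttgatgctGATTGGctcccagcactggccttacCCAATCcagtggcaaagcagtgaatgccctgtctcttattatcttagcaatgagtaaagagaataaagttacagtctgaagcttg
H2-Aa had 1 match, which starts 49 bases before the start site, and H2-Eb1 had 2, which start 60 and 35 bases before it. Of all 32851 promoter windows in the table, 16.1% hold these letters, so a match is a description of the window and no proof of a site. Windows of Mef2c and Irf8, both lower in the cornea, hold the same letters too, starting 52 and 122 bases before the start site.

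MHC class I genes were mixed, with 6 higher and 5 lower of 17 tested and a median of -0.03. These shares (35.3% and 29.4%) were near those of all genes tested (33.8% and 33.1%). The heavy chains H2-D1 (5637 ± 463 against 951 ± 80.3 CPM) and H2-K1 (1724 ± 319 against 359 ± 32.5 CPM) were higher in the cornea. So were their light chain B2m (2319 ± 435 against 950.1 ± 291 CPM) and the class I coactivator Nlrc5 (51.4 ± 9.97 against 2.33 ± 0.638 CPM). Subunits of the immunoproteasome, Psmb9 (12.5 ± 1.06 against 30.3 ± 3.08 CPM) and Psmb8 (61.8 ± 4.34 against 115 ± 8.44 CPM), and the peptide transporter Tap2 (54.5 ± 6.57 against 129 ± 13 CPM) were lower. Tap1 (53 ± 12.3 against 65.5 ± 4.01 CPM) was not called, but was lower without cornea library 2 (-0.45). H2-Q7 (183 ± 42.3 against 2.74 ± 0.378 CPM) and the classical heavy chains share sequence with near copies, so their counts are uncertain. With total counts only, 11 members of this list were lower.

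Chemokine genes were far higher in the cornea. In this list 19 of 22 tested members were higher in the cornea and 1 lower, with a median of 7.60 (7.47 with genes without brain reads at their bound). Cxcl2, which draws neutrophils through CXCR2, had 19031, 18929, 18134 and 13900.0 CPM in the cornea libraries and 2.65, 0, 0.198 and 0 CPM in the brain libraries (log2 fold change 14.54, SE 0.89, adjusted p = 2.65e-10). All 4 cornea libraries lay far above the brain, where 2 libraries held no read. Its neighbours Cxcl1 (7503, 6736, 4405 and 4849.6 CPM in the cornea, 0.232 ± 0.417 in the brain) and Cxcl3 (1409, 1324, 1281 and 635 CPM in the cornea, no read in the brain, at least 16882-fold) showed the same separation. The monocyte attractant Ccl2 (1749.8 ± 660.5 against 10.3 ± 2.61 CPM) and Ccl3, a ligand of CCR1 (3382 ± 315 against 23.5 ± 0.678 CPM), were higher from a measurable base in the brain. Ccl6 was the only member called lower in the cornea (85.6 ± 4.01 against 131 ± 22.9 CPM). Per kilobase, Cxcl2 exceeded Cxcl1 (8462 against 3132 CPM per kilobase) and both exceeded Cxcl3 (332).

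Cxcl1, Cxcl2 and Cxcl3 lie in 1 cluster on chromosome 5 and are known targets of NF-kappaB. Their promoter windows are shown because the 3 genes rose together, with matches to the kappaB letters (GGG, any 3 bases, TTCC) on either strand in capitals, where overlapping matches run into each other.
Cxcl1 (chr5:90890995-90891294, plus strand): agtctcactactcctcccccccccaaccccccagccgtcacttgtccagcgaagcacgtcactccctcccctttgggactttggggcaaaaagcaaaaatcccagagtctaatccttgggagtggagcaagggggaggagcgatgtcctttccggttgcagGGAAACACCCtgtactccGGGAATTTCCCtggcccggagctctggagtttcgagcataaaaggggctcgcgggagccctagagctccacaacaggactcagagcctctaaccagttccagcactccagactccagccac
Cxcl2 (chr5:90903649-90903948, plus strand): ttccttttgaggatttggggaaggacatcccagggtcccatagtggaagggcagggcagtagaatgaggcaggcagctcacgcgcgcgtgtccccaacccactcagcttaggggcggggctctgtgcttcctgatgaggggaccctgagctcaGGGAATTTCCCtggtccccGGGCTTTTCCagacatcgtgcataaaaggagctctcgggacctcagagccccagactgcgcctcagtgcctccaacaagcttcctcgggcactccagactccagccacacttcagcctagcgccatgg
Cxcl3 (chr5:90785851-90786150, plus strand): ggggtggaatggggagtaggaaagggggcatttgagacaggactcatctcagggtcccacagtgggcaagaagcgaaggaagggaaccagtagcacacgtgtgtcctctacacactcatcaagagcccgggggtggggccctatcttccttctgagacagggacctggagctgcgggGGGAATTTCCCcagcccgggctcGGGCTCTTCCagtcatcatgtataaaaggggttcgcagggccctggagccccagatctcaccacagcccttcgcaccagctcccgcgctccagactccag
Each window had 3 matches, starting 89, 71 and 70 bases before the start site in Cxcl1, 97, 96 and 78 in Cxcl2, and 73, 72 and 50 in Cxcl3. Windows with at least 1 match made up 5.56% of the 32851. The window of Ccl3 had none, which says only that these letters are not in that window. For contrast, the window of P2ry12, which fell, is shown with the same letters marked, since it holds a match too.
P2ry12 (chr3:59262936-59263235, minus strand): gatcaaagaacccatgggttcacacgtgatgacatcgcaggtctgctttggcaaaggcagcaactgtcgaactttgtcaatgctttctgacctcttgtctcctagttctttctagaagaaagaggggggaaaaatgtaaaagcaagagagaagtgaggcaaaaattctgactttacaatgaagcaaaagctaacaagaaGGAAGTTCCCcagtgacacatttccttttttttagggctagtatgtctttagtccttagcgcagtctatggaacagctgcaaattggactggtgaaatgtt
Its match starts 51 bases before the start site, so these letters were found in genes that moved in both directions.

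Receptors for chemokines and other attractants followed no single direction: 12 of 22 tested members were higher in the cornea and 6 lower. These shares were 54.5% and 27.3%, beside 33.8% and 33.1% of all genes tested. C5ar1, the receptor of the complement fragment C5a, had 3176 ± 533 against 289 ± 39.2 CPM, and Ccr1 458 ± 133 against 34 ± 10.3 CPM. Cxcr4 had 60.5 ± 10.5 CPM in the cornea and 2 reads in all brain libraries, and Ccr7, which guides cells into lymph vessels, 29.9 ± 27.4 against 0.0924 ± 0.141 CPM. The formyl peptide receptor Fpr1 had 15 ± 11.9 CPM in the cornea and no brain read (at least 208-fold). The oxysterol receptor Gpr183 (54.7 ± 19.6 against 381 ± 32.2 CPM) was lower in the cornea, as were Ccr6 and the scavenging receptor Ackr3. Ackr3 was low in both populations (0.198 ± 0.396 against 3.03 ± 1.19 CPM) and no longer called without cornea library 2 (log2 fold change -3.68), 3 (-3.66) or 4 (-3.65), without brain library 4 (-3.78), or with the lane as a term (-6.86).

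Inflammatory cytokine genes were higher in the cornea for 26 of 33 tested members and lower for 5 (median 4.30). Il1b, the pyrogenic cytokine released through inflammasomes, had 1870.5, 2023, 988 and 922 CPM in the cornea libraries against 1.63, 1.02, 1.39 and 1.74 CPM in the brain libraries (9.95, SE 0.44). Cornea libraries 1 and 2 lay near each other and well apart from 3 and 4, but all 4 lay far above the brain libraries. Its antagonist Il1rn stood even higher in the cornea (6569 ± 419 against 0.926 ± 0.488 CPM). Tnf had 1760.3 ± 404 against 1.03 ± 1.09 CPM, Il1a 1752 ± 333 against 89.2 ± 33.8 CPM and Il6 113 ± 36.6 against 9.09 ± 4.08 CPM. Il10, an anti-inflammatory cytokine, had 372 ± 107 CPM in the cornea and 1 read in the brain. Ptgs2, the inducible cyclooxygenase, had 2979, 2716, 2409 and 2288 CPM in the cornea libraries and no read in any brain library, at least 38600.4-fold higher. Irg1, which encodes the itaconate-making enzyme ACOD1, also had none in the brain (1019 ± 212 CPM in the cornea, at least 15563-fold). The members lower in the cornea were receptors, among them Il6ra (69.5 ± 16.4 against 295 ± 43.6 CPM), Il10ra (148 ± 46.2 against 559 ± 32.2 CPM) and Il21r (60.6 ± 9.01 against 191 ± 11 CPM).

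Genes of the NF-kappaB pathway were higher in the cornea for 25 of 26 members, with a median of 4.20. They included the inhibitor Nfkbia (2697 ± 273 against 152 ± 55.8 CPM), the nuclear inhibitor protein gene Nfkbiz (1309 ± 74.8 against 14.9 ± 4.12 CPM), the deubiquitinase Tnfaip3 (2997 ± 296 against 86.5 ± 9.27 CPM) and the subunit Nfkb1 (932 ± 156 against 163 ± 9.94 CPM). The largest rises were those of Tnip3 (781 ± 228 against 0.289 ± 0.422 CPM) and the adaptor Traf1 (578 ± 42.6 against 0.945 ± 0.774 CPM). Nfkbil1 was the member called lower (3.86 ± 0.796 against 8.79 ± 3.04 CPM), and it was not called within lane 3 (log2 fold change -1.03).

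Immediate-early and heat shock genes were also mostly higher in the cornea. Of the immediate-early genes 31 of 36 tested members were higher in the cornea and 2 lower (median 4.75), and of the heat shock and co-chaperone genes 20 of 22 tested members were higher in the cornea and 1 lower (median 2.59). Egr1, a zinc finger factor induced within minutes of a stimulus, had 577, 886, 1066 and 1057 CPM in the cornea and 28.9, 26.1, 37.8 and 28.2 in the brain libraries. Fos had 266 ± 89.7 against 30.9 ± 4.28 CPM, Atf3 2423 ± 669 against 22.1 ± 4.62 CPM, the orphan nuclear receptor Nr4a1 509 ± 84.3 against 2.12 ± 0.953 CPM and the polo-like kinase Plk2 3343 ± 742 against 1.36 ± 0.801 CPM. Jun did not follow, with 446 ± 101 against 532 ± 105 CPM and no call. The MAP kinase phosphatase Dusp6 (34.3 ± 5.18 against 774 ± 181 CPM) and Rgs2 (115 ± 9.7 against 401 ± 29.4 CPM) were lower in the cornea. Hspa1a, the inducible HSP70, had 6954, 9419.7, 7234 and 5088 CPM in the cornea and 15.7, 11.7, 3.86 and 2.68 CPM in the brain libraries, and its near-identical neighbour Hspa1b, whose reads can be shared with it, 8246 ± 2269 against 17.8 ± 16.6 CPM. Hsph1 (1920.0 ± 361 against 32.8 ± 7.38 CPM) and Dnajb1 (376 ± 91.4 against 69.9 ± 17 CPM) were higher too, while their activator Hsf1 was slightly lower (29.9 ± 4.06 against 41.4 ± 4.88 CPM).

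All cornea libraries came from tissue digested at 37 °C. Retinal microglia, whose tissue was broken up in cold buffer without the enzyme, had 4.62 ± 2.9 CPM of Hspa1a, 76.3 ± 69.9 of Egr1, 0.518 ± 0.186 of Cxcl2 and 0.174 ± 0.152 of Ptgs2. None of these genes was called between retina and brain, nor were Cxcl1, Il1b, Nfkbia, Fos and Hsph1. Other members of their lists were called higher in retinal than in brain microglia. Among them were Tnf (log2 fold change 3.26), Ccl2 (2.02), Ccl3 (2.01), Nfkbiz (1.13) and Atf3 (1.18). For all genes, not only the chemokine, cytokine, NF-kappaB, immediate-early and heat shock lists, population and digestion cannot be told apart here. For the sequencing lane, the medians of these lists can be set side by side. Within lane 3 the median log2 fold changes rest on cornea library 4 as the only cornea library. They were 7.74 for chemokine, 4.04 for cytokine, 4.15 for NF-kappaB, 4.81 for immediate-early and 2.63 for heat shock genes. The 4 retina libraries were sequenced in lane 2, and the part of the lane in their levels was not tested.

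Interferon-stimulated genes were higher in the cornea for 33 of 36 tested members and lower for 1 (median 3.90). Ifit1, an RNA-binding antiviral protein, had 659, 929, 582 and 1138 CPM in the cornea and 5.91, 9.54, 4.26 and 9.13 in the brain libraries. The ubiquitin-like modifier Isg15 had 302 ± 61 against 4.52 ± 0.78 CPM, Ifit3 282 ± 101 against 24.1 ± 4.6 CPM, and the oligoadenylate synthase family members Oasl1 1455 ± 394 against 1.01 ± 0.993 CPM and Oas2 129 ± 22.8 against 0.235 ± 0.251 CPM. Ifi205 had no brain read and 254 ± 53.2 CPM in the cornea. Mx1, an antiviral GTPase (35.9 ± 18.6 against 5.03 ± 3.72 CPM), lost its call within lane 3 (log2 fold change 1.57). Igtp, a GTPase induced by interferon gamma, was the member called lower (37.4 ± 9.87 against 99.5 ± 5.86 CPM).

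Cell cycle genes were higher in the cornea for 24 of 35 members (median 2.00) and lower for 3. Mki67, which marks dividing cells, had 173, 165, 202 and 69.9 CPM in the cornea and 5.22, 1.93, 2.48 and 2.39 CPM in the brain libraries. Cornea library 4 lay below the other 3, and still above every brain library. Top2a had 50.7 ± 15.8 against 1.15 ± 1.76 CPM, the mitotic cyclin Ccnb1 2.79 ± 0.944 against 0.497 ± 0.602 CPM and the replication helicase subunit Mcm5 31.4 ± 5.91 against 7.61 ± 1.38 CPM. Within lane 3, where cornea library 4 is the cornea library, 8 of the 24 members called higher were not called. They were Ccnb1 (log2 fold change 2.08), Ccna2 (0.87), Aurkb (1.11), Cdc20 (0.64), Cenpe (1.01), Kif11 (1.08), Kif20a (-0.77) and Mcm2 (-0.43), and Cenpf, not called with all libraries, was lower there (-4.66) and higher without cornea library 4 (edgeR adjusted p = 0.000279). Cdc20 also lost its call without cornea library 2 or 3 or brain library 2, 3 or 4 (0.90 to 1.32), and Kif20a without cornea library 3 (1.82). Ccnd2, a G1 cyclin, had the largest difference (137 ± 34.1 against 0.22 ± 0.319 CPM). Tyms, Ccnd3 and Rrm1 were lower in the cornea (log2 fold changes of -1.33, -1.19 and -0.66), Tyms without a call within lane 3 (-0.78).

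TGF-beta, on which microglia depend, was represented by 28 tested genes, of which 15 were higher and 9 lower in the cornea. These shares were 53.6% and 32.1%, beside 33.8% and 33.1% of all genes tested. The ligand Tgfb1 had 397 ± 73.7 against 221 ± 70.4 CPM, a difference called with all libraries but neither with total counts only (0.18) nor within lane 3 (0.85). The receptor gene Tgfbr2 (234 ± 18 against 949 ± 93.7 CPM) and the inhibitory Smad7 (40.1 ± 9.01 against 84.7 ± 18.3 CPM) were lower. Of the proteins that hold latent TGF-beta, Nrros, the form made by microglia, was slightly lower in the cornea (257 ± 43.1 against 319 ± 13.7 CPM; log2 fold change -0.31). That call was lost without cornea library 3 (-0.28) or 4 (-0.27), without the low-count filter or with only the 8 libraries (-0.31 in both). Lrrc32 had 96.7 ± 10.8 CPM in the cornea and no brain read, at least 1469-fold higher. The matrix binder Ltbp1 had 21.5 ± 16.5 CPM and likewise no brain read (at least 361-fold).

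Receptors of extracellular nucleotides and adenosine, with the enzymes that make and clear them, went both ways: 10 of 20 tested members were higher in the cornea and 7 lower. Besides P2ry12, the adenosine receptor Adora3 (0.376 ± 0.61 against 64 ± 8.21 CPM), the ATP-gated channel P2rx1 (0.253 ± 0.271 against 15.2 ± 1.83 CPM) and the UDP receptor P2ry6 (121 ± 12 against 287 ± 41.1 CPM) were lower in the cornea. Adora2b (32.5 ± 5.27 against 0.104 ± 0.12 CPM) and Adora2a (12.4 ± 7.43 against 0.0254 ± 0.0508 CPM), which raise cyclic AMP, were higher. The ATP-gated channels P2rx4 (309.9 ± 16.5 against 146 ± 13 CPM) and P2rx7 (601 ± 71.6 against 302 ± 52.9 CPM) were called higher too, P2rx7 not with total counts only (log2 fold change 0.32).

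Genes for the uptake of dying cells were more often lower than higher in the cornea (11 against 6 of 21). These shares were 52.4% and 28.6%, beside 33.1% lower and 33.8% higher of all genes tested. The TAM receptor Axl was far higher in the cornea (1231 ± 102 against 19.2 ± 8.18 CPM; log2 fold change 5.99, SE 0.29). The bridging ligand Pros1 went the other way (138 ± 29.1 against 1188 ± 54.9 CPM). The integrin chains Itgb5 (166 ± 14.8 against 2949 ± 367 CPM) and Itgb3 (5.12 ± 3.4 against 110.1 ± 24.4 CPM) and the scramblase Xkr8 (1.88 ± 1.32 against 21.5 ± 4.28 CPM) were higher in the brain. The transglutaminase Tgm2 (584 ± 71.9 against 86 ± 8.25 CPM) and thrombomodulin, Thbd (18.6 ± 4.48 CPM, no brain read), were higher in the cornea. Mfge8 (52.6 ± 6.52 against 34.9 ± 8.26 CPM) was called higher, but not with the lane as a term (log2 fold change 0.50) or within lane 3 (0.64), and its log2 fold change was -0.086 with total counts only.

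Scavenger receptors and C-type lectins were higher for 16 and lower for 7 of 28 (median 1.65, or 1.21 with genes without brain reads at their bound). Msr1, a scavenger of modified lipoproteins, had 541 ± 75.9 against 3.42 ± 0.898 CPM. Clec4d had 1121 ± 151 CPM in the cornea and 2 reads in the brain, Clec4n, or dectin-2, 301 ± 53.6 CPM and 1 read, and Cd93 647 ± 40.4 CPM and 2 reads. Marco, which binds bacteria, was low (5.91 ± 4.52 CPM) and had no brain read. Clec7a, the beta-glucan receptor dectin-1, had 172 ± 16.2 against 22.3 ± 2.29 CPM. Siglecf (2.81 ± 0.338 against 42.2 ± 11.9 CPM) and the lysosomal receptor Scarb2 (84.2 ± 7.7 against 326 ± 33.7 CPM) were lower in the cornea.

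Complement genes were higher for 12 and lower for 2 of 19. The central component C3 had 77.4 ± 24.6 against 0.151 ± 0.0685 CPM, and properdin, Cfp, which stabilises the alternative convertase, 562 ± 119.9 against 0.859 ± 0.413 CPM. C4b stood at 33.4 ± 10.3 against 4.97 ± 1.83 CPM and Cfb at trace levels (0.841 ± 0.489 against 0.0508 ± 0.102 CPM). The C1 protease C1s1 and its inhibitor Serping1 had 22 ± 10.1 and 83.5 ± 20.6 CPM in the cornea, with no brain read of the first and 1 of the second. C1rl was higher in brain microglia (2.79 ± 0.682 against 25.3 ± 6.46 CPM). The chains of C1q, the recognition part of the C1 complex, were counted with the uptake genes. C1qa was lower in the cornea (log2 fold change -1.57), and so was C1qc (-1.42), though not within lane 3 (-1.23). C1qb was not called (-0.85), but was lower with the lane as a term (-1.56) and with only the 8 libraries (-0.84).

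Fc receptor genes were lower for 9 and higher for 7 of 20, and Toll-like receptor genes lower for 13 and higher for 10 of 25. Fcgr3, a low-affinity activating receptor, had 305 ± 85.5 against 1154 ± 156 CPM, whereas the inhibitory Fcgr2b (204 ± 23.8 against 228 ± 24.2 CPM) was not called. The signalling chain Fcer1g (796 ± 93.1 against 520.4 ± 63.2 CPM) was called higher, with a log2 fold change of -0.058 on total counts, but neither with the lane as a term (0.45) nor within lane 3 (0.51). Fcgr4 (21.6 ± 3.98 against 12.9 ± 3.37 CPM) lost its call without cornea library 1 (0.64) or brain library 1 (0.56), with total counts only (0.08), with the lane as a term (0.44) and within lane 3 (0.83). The phosphatase Inpp5d (169 ± 29.5 against 977 ± 111 CPM) and the kinase Btk (24.7 ± 3.86 against 144 ± 7.08 CPM) were lower. The inhibitory receptors Pirb (148 ± 21.2 against 21.5 ± 4.14 CPM) and Lilrb4 (7340.4 ± 358 against 6.2 ± 3.25 CPM) were higher. Among Toll-like receptors, Tlr2, which senses bacterial lipoproteins (1667 ± 174 against 235 ± 26 CPM), and the lipopolysaccharide co-receptor Cd14 (5688 ± 1429.7 against 486 ± 82.5 CPM) were higher. Tlr4 itself (41.4 ± 11.9 against 210.1 ± 28 CPM), the RNA sensor Tlr3 (9.46 ± 3.71 against 161 ± 9.38 CPM) and Tlr12 (0.262 ± 0.452 against 42.8 ± 6.78 CPM) were lower. Tlr7 (262 ± 26.1 against 394 ± 32 CPM) was somewhat lower, and Tlr8 had no brain read (15.3 ± 5.28 CPM in the cornea).

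Lipid transport genes were higher for 22 and lower for 5 of 31 (median 2.24). Apoe, the lipid carrier, had 22195, 27923, 22162 and 18757 CPM in the cornea and 551, 475, 521 and 544 in the brain libraries, with no overlap (5.44, SE 0.26). Galectin-3, Lgals3 (4783 ± 604 against 2.69 ± 0.81 CPM), the fatty acid binder Fabp4 (136 ± 14.4 CPM and 1 brain read) and the cholesterol 25-hydroxylase Ch25h (173 ± 31.5 against 0.18 ± 0.161 CPM) had the largest fitted rises. The cholesterol exporters parted, with Abcg1 lower (67.8 ± 7.22 against 235 ± 31.6 CPM) and Abca1 higher (735 ± 201 against 348 ± 49.9 CPM). Abca1 was not called with total counts only (0.41), with the lane as a term (0.79), within lane 3 (0.58) or without cornea library 1 (0.87). Of the sterol and fatty acid synthesis genes, 16 of 27 were higher and 3 lower, or 10 and 7 with total counts only. The desaturase Scd2 (10.2 ± 5.57 against 164 ± 34.3 CPM) was lower.

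Iron and heme genes included Fth1, the transcript with the highest level per length in the cornea. Hmox1, which breaks down heme, had 12232, 22076, 29879 and 16494 CPM in the cornea and 28.3, 42, 36.3 and 33.6 in the brain libraries (9.17, SE 0.39, adjusted p = 2.52e-12), and cornea library 3 was the highest and library 1 the lowest of its group. The ferritin chains Fth1 (28701 ± 4109 against 979 ± 53.2 CPM) and Ftl1 (3294 ± 508 against 136 ± 12.1 CPM) were higher, both with processed copies elsewhere in the genome that make their counts uncertain. Slc40a1, the iron exporter ferroportin, went the other way (130.1 ± 34 against 796 ± 119 CPM). The list had 12 members higher and 5 lower of 20.

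Matrix remodelling genes were higher for 28 and lower for 3 of 35 (median 5.30). The macrophage elastase Mmp12 had 243 ± 85 against 1.17 ± 0.689 CPM, the membrane-bound Mmp14 550.1 ± 61.5 against 46.6 ± 7.04 CPM and urokinase, Plau, 513 ± 159 against 28 ± 10.6 CPM. The collagenase Mmp13 had 787 ± 244 CPM with 2 reads in the brain. Mmp3 had 30 ± 13.6 CPM and no brain read. Timp2, an inhibitor of these proteases (299 ± 70.9 against 471 ± 58.6 CPM), and the sheddases Adam10 (154 ± 5.59 against 623 ± 83.2 CPM) and Adam15 (98.8 ± 17.2 against 245 ± 35.8 CPM) were higher in brain microglia. Growth factor genes were higher for 17 and lower for 4 of 23. They included Vegfa, the vessel growth factor (195 ± 93.9 against 0.851 ± 0.215 CPM), Igf1 (192 ± 39 against 1.67 ± 1.16 CPM) and Pgf (35.9 ± 9.51 against 0.0254 ± 0.0508 CPM). Hbegf (318 ± 124 against 4.85 ± 1.16 CPM) and Areg (300.5 ± 39.7 CPM, no brain read), both ligands of the EGF receptor that drives epithelial repair, were higher too. Another ligand of the same receptor, Tgfa, was the reverse, with 227, 212, 235 and 201 CPM in the brain and 0.113, 1.28, 3.15 and 0 in the cornea libraries. Pdgfb (119 ± 29.8 against 81 ± 17 CPM) was called higher, but lost the call without cornea library 1 (0.49) or 3 (0.38), without brain library 1 (0.41), with the lane as a term (0.15) and within lane 3 (0.00), and had a log2 fold change of -0.11 with total counts only.

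Lysosomal enzymes were evenly split, 12 higher and 12 lower of 31 (38.7% each). These shares were near those of all genes tested (33.8% higher and 33.1% lower). Ctsd (5111 ± 732 against 17695 ± 2141 CPM), Ctsf (48.9 ± 1.34 against 374 ± 15.8 CPM) and the galactosidase Glb1 (42.2 ± 9.45 against 171 ± 12.3 CPM) were lower in the cornea. Ctsb (22977 ± 4407 against 5068 ± 219 CPM), the alpha-galactosidase Gla (828 ± 190.3 against 4.58 ± 3.02 CPM) and the acid phosphatase Acp5 (145 ± 38.4 against 0.0709 ± 0.0939 CPM), known from osteoclasts, were higher. Ion channel genes were also even (11 and 11 of 26, 42.3% each). The potassium channel Kcnk13, which sets the resting potential of microglia, was not called (178 ± 27 against 162 ± 21.8 CPM). Kcnk6 (24.5 ± 5.6 against 359.6 ± 27.6 CPM) was lower, and Kcnn4 (149 ± 27.1 against 5.84 ± 2.57 CPM), Kcna3 (46.6 ± 13.1 against 3.27 ± 1.97 CPM) and the chloride channel protein gene Clic4 (3797 ± 875 against 18 ± 3.15 CPM) higher. Of the integrin chains, 9 were higher and 4 lower of 15, with Itga6 (123 ± 24.4 against 616 ± 98.5 CPM) lower and Itgax, which encodes CD11c (65.2 ± 4.81 against 12.4 ± 2.27 CPM), higher. Itgb2 (948 ± 40.1 against 759.7 ± 54.2 CPM) was called higher, but not with the lane as a term (0.29), within lane 3 (0.33) or without brain library 3 (0.26), and its log2 fold change was -0.35 with total counts only. Semaphorin and plexin genes were split as well (9 higher and 8 lower of 22, 40.9% and 36.4%). Of these, Plxdc2 (42.9 ± 2.48 against 1038 ± 52.7 CPM) was lower. Plxna1 (86.3 ± 19.2 against 5.07 ± 1.73 CPM) and Plxnd1 (57 ± 14.9 against 0.316 ± 0.343 CPM) were higher. Nrp1 (363 ± 34.1 against 417 ± 59 CPM) and Sema4d (407 ± 62 against 448 ± 58.7 CPM) were not called.

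Genes that rise in microglia around plaques or degenerating neurons were mostly higher in cornea macrophages as well, 19 of 27 against 4 lower. Spp1, or osteopontin, had 1162 ± 190.3 against 2.61 ± 0.734 CPM and Gpnmb 91.9 ± 24.5 against 0.441 ± 0.543 CPM, while Ctsd, Timp2, Ccl6 and Tyrobp were lower. Tyrobp, the signalling adaptor of TREM2, had a small difference (log2 fold change -0.43) and was not called within lane 3 (-0.55), without cornea library 3 (-0.41) or 4 (-0.43), or without brain library 3 (-0.34) or 4 (-0.44). This list was drawn up for microglia and shares members with the lipid, cathepsin and matrix lists. Of the glycolysis genes 12 of 29 were higher (41.4%) and 8 lower (27.6%), beside 33.8% and 33.1% of all genes tested. Pfkp (232 ± 34.6 against 1.68 ± 0.768 CPM), the glucose transporter Slc2a1 (177 ± 48 against 55.8 ± 14.8 CPM) and Ndrg1 (338 ± 76.4 against 0.242 ± 0.379 CPM) were higher. Pfkl (23.4 ± 1.93 against 116 ± 12.8 CPM), Hk2 (133 ± 20.6 against 236 ± 25.2 CPM) and the pyruvate dehydrogenase kinase Pdk1 (9.02 ± 1.21 against 184 ± 32.9 CPM) were lower.

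**Figure D3:**
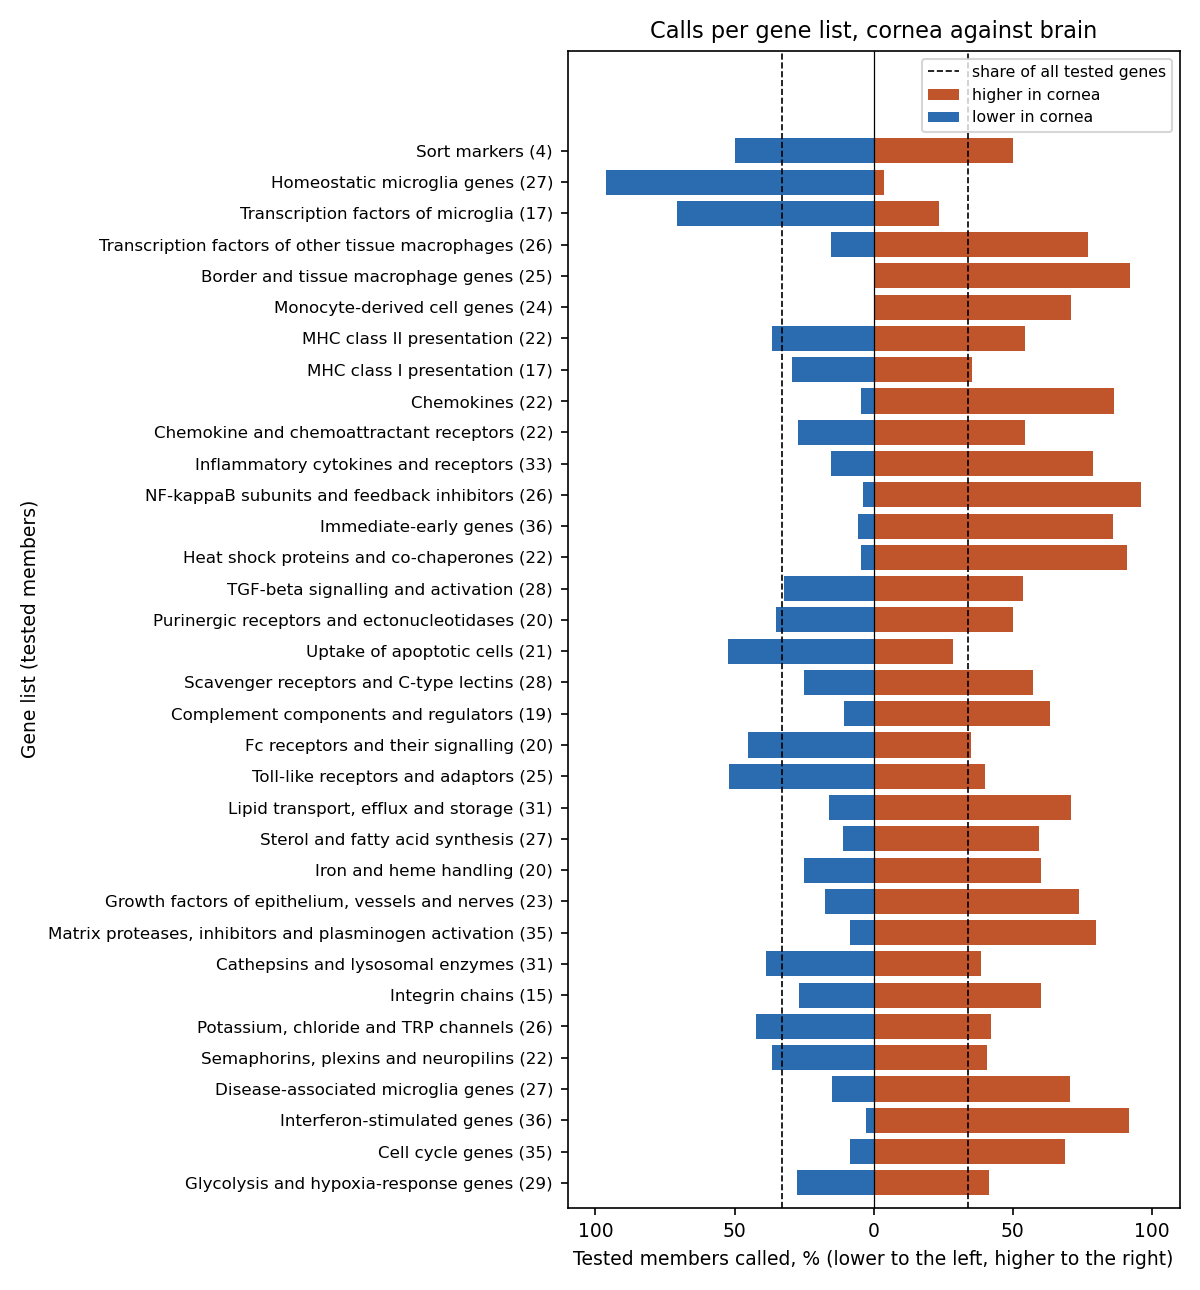
Share of the tested members of each gene list (y axis, number tested in brackets) that was called higher (right) or lower (left) in the cornea, in percent (x axis), with dashed lines at the shares over all tested genes, 33.8% higher and 33.1% lower. Homeostatic microglia genes reach furthest to the left, and NF-kappaB, border macrophage, interferon-stimulated and heat shock genes furthest to the right.

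Beyond the lists, the 12 genes with the largest fitted rises were taken among genes with at least 50 CPM in the higher population. Where a population has no read the fitted value is no bound, so the genes are given in no order of size. They were Ptgs2, Cxcl3, Irg1, Ahnak, Flrt3, an adhesion protein (808 ± 142 CPM, no brain read, at least 12141-fold), Gm6377 (399.8 ± 39.7 CPM), Emp1 (1338 ± 261 CPM, 1 brain read, ratio 59511 with an interval of 10681 to 2350595), Areg, Clec4e, Ankrd33b (274 ± 10.2 CPM), Stx11 (274 ± 36.8 CPM) and Ifi205. The 12 largest fitted falls, likewise in no order, included those of Tmem100 (121 ± 9.71 CPM in the brain, no cornea read, at least 1975-fold lower), Asap3 (57.3 ± 12.7 CPM, no cornea read), Sall1, Slc2a5, Sall3, Csmd3 (86.1 ± 8 CPM, 2 cornea reads) and Nav3 (0.144 ± 0.218 against 171 ± 16.4 CPM). The others were Lrrc3 (0.389 ± 0.306 against 298 ± 37.3 CPM), the adhesion receptor Adgrg1 (1.49 ± 0.605 against 1113 ± 133 CPM), Tspan18 (0.137 ± 0.111 against 75.4 ± 6.72 CPM), Thrsp (0.136 ± 0.22 against 66.9 ± 6.71 CPM) and Mlph (0.262 ± 0.452 against 87.4 ± 17.1 CPM). Adgrg1, also called GPR56, had 985, 1097, 1070.1 and 1299 CPM in the brain and 1.7, 0.681, 1.46 and 2.12 in the cornea libraries, a complete separation.

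Transcripts of other cells were present in the cornea sort. The summed level of the corneal epithelium list was 268 to 1969 CPM in the cornea and 3.6 to 11.4 CPM in the brain libraries, and that of the keratocyte and fibroblast list 1771 to 3322 against 0.203 to 3.55 CPM. Krt12, the keratin of corneal epithelium, had 482, 111, 119 and 68.3 CPM in cornea libraries 1 to 4, so library 1 held the most and library 4 the least, and Dcn, the proteoglycan decorin of keratocytes, 538, 599.9, 973 and 979 CPM. Defining markers at no read in the brain included Krt5, Krt14, Aldh3a1 and Lum. Genes that these cells also make, among them C3, C1s1, Serping1, Mmp3 and Areg, were higher in the same libraries, and the part of epithelial cells and keratocytes in those results was not tested. Cornea library 4 had the lowest epithelial sum, but its keratocyte sum (2885 CPM) was the second highest of the 4 and its Dcn level the highest. In the fit within lane 3, where it is the cornea library, Perp had a log2 fold change of -0.91 in place of 3.12 (-0.85 with the lane as a term). In the same fit Cxcl1 (14.21), Cxcl2 (14.18), Ccl2 (8.02), Cd74 (9.12), H2-Aa (11.06) and Ciita (6.55) were called as with all libraries.

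Markers of other cells were found in both populations, and their part in the results was not tested. The neutrophil list summed to 84 to 130.2 CPM in the cornea and 358 to 429 CPM in the brain, mostly from the cytokine receptor gene Csf3r (110.1 ± 21.1 against 379 ± 37.4 CPM). S100a8 stood at 0.666 ± 1.11 against 0.355 ± 0.711 CPM, and Mpo had no cornea read. Lymphocyte markers summed to 283 to 419 and 46.4 to 62 CPM, mostly from Il7r (292 ± 55.9 against 53.5 ± 7.65 CPM) and, in the cornea, Cd4 (48.1 ± 15.3 CPM, no brain read). The dendritic cell list summed to 176 to 269 and 1650.0 to 1817 CPM. In the brain it was mostly Siglech (1688 ± 70.8 CPM), which microglia make. Of its 13 tested members 8 were higher in the cornea and 4 lower. Besides Cd207, Xcr1, Ccr7 and Zbtb46, the higher ones included Flt3 (4.37 ± 2.81 against 1.15 ± 1.02 CPM), whose call was lost without cornea library 2 (log2 fold change 1.36), within lane 3 (1.72), with the lane as a term (edgeR adjusted p = 0.0642), with total counts only (1.22) and with only the 8 libraries (1.92). The lower ones were Siglech, Batf3, Itgae (-4.02) and Snx22 (-1.98), the last not called without cornea library 1 (-1.79) or brain library 1 (-1.89). Mast cell genes reached 4.84 to 12.9 CPM in the cornea. The astrocyte list summed to 98.9 to 152 CPM in the cornea and 368 to 445 CPM in the brain, where it was mostly Slc1a3 (261 CPM) and Glul (138 CPM), with no read of Gfap. The oligodendrocyte list summed to 57 to 81.6 and 163 to 169 CPM, in the brain mostly from Cnp (108 CPM) and Mbp (36.9 CPM), with no read of Olig2. The endothelial and mural list summed to 22.2 to 33.6 and 53.7 to 74.3 CPM, in the brain mostly from Pecam1 (41.3 CPM), with no read of Cldn5. Melanocyte and Schwann cell genes summed to 8.03 to 36.9 and 35.9 to 41.3 CPM. Neuronal genes summed to 3.65 to 4.93 CPM in the brain, and erythroid genes to 0.406 to 47.6 CPM, with brain library 3 the highest. Hbb-bs was called lower in the cornea, but not without brain library 3 (log2 fold change -1.65) or within lane 3 (-3.77).

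**Figure D4:**
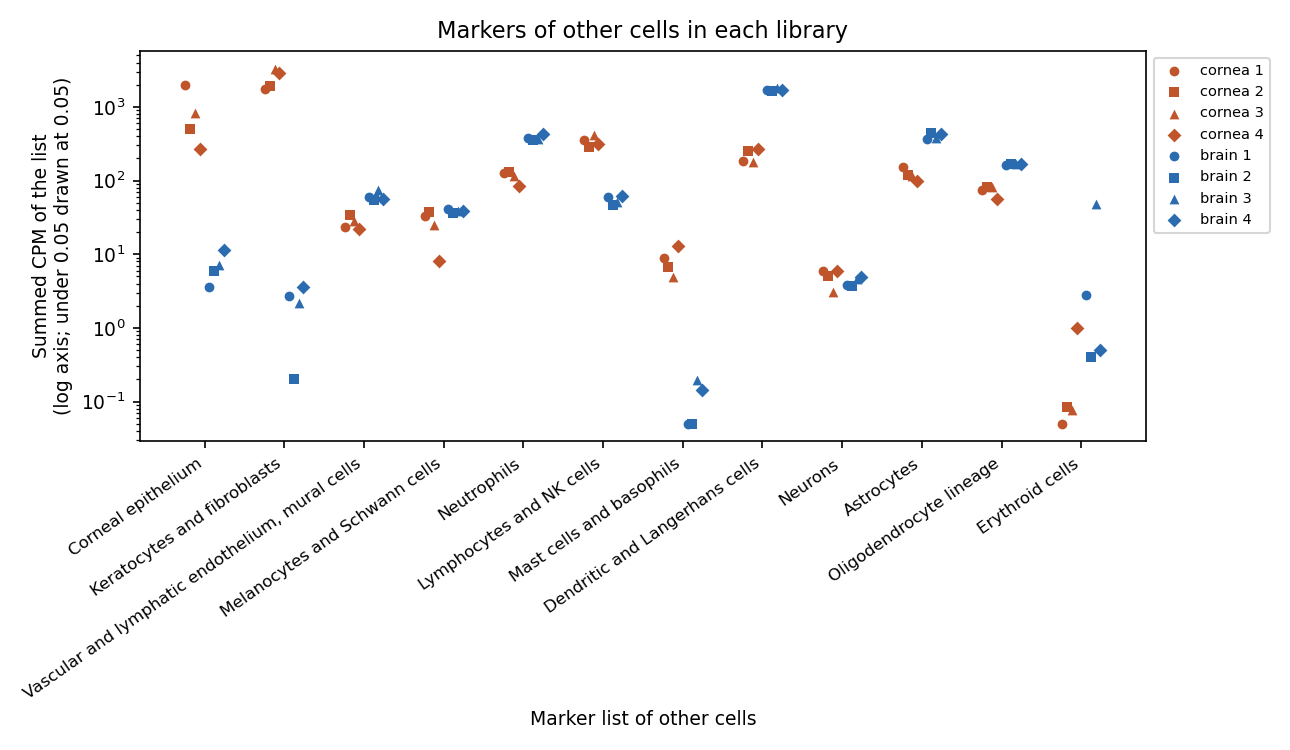
Summed CPM of each marker list of other cells (x axis) in every cornea and brain library, on a log axis with sums under 0.05 drawn at 0.05. The epithelial and keratocyte lists lie far higher in the cornea libraries than in the brain libraries, and brain library 3 stands out for erythroid transcripts.

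Lane and population were nearly confounded, as only cornea library 4 shared the lane of the brain libraries. Of 753 list genes called with all libraries, 748 were tested within lane 3. There 744 kept their direction and 681 were also called, with the spread of the lone cornea library assumed to be like that of the other populations. With the lane as a term over all 16 libraries, 752 kept their direction and 705 were called.

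**Figure D5:**
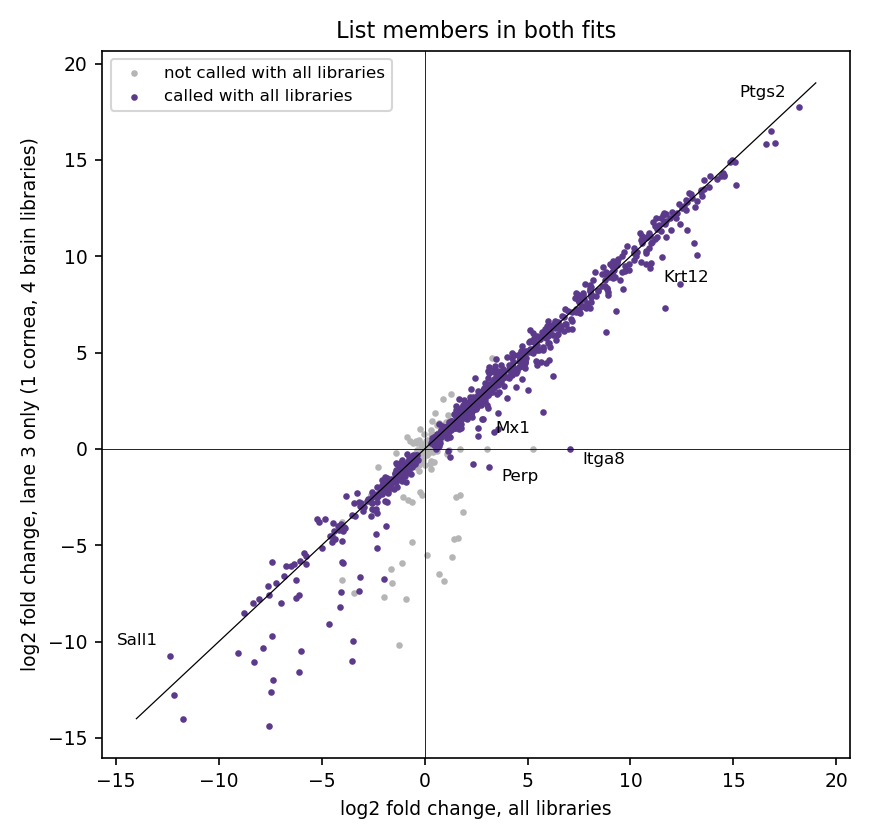
Log2 fold change of each list gene between cornea and brain with all libraries (x axis) and within lane 3 (y axis; 1 cornea and 4 brain libraries), with the line of equality. Points called with all libraries follow the line, apart from genes with few reads in cornea library 4 such as Perp.

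The remaining populations place the contrast. Retinal microglia had P2ry12 and Sall1 at levels nearer the brain than the cornea, with P2ry12 at 7516 ± 1010.1 CPM, Sall1 at 539 ± 134, Cd74 at 149 ± 35.8 and Cxcl2 at 0.518 ± 0.186. Of these, P2ry12 was lower in the retina than in the brain (log2 fold change -0.87, adjusted p = 0.00541) and Cd74 higher (1.85, adjusted p = 2.11e-05), while Sall1 was not called (-0.35, adjusted p = 0.411). Some genes higher in the cornea were also higher in retinal than in brain microglia. Log2 fold changes of retina over brain were 3.70 for Clec7a, 6.83 for Gpnmb, 2.46 for C4b, 3.72 for Axl and 3.42 for Mki67. Between cornea and retina, Gpnmb (0.74) and C4b (0.29) were not called, and Clec7a was lower in the cornea (-0.76). Others, among them Hmox1 (0.19) and Cxcl2 (-0.50), were not called between retina and brain. Fcrls was lower in the retina than in brain or cornea. Marrow monocytes had Sall1 at 0.0249 ± 0.0498, P2ry12 at 6.96 ± 1.57, Mrc1 at 21.3 ± 2.11, Cd163 at 3.94 ± 1.71 and Spic at 1.83 ± 1.26 CPM. Cornea macrophages exceeded monocytes in Mrc1 (log2 fold change 6.19, adjusted p = 4e-12), in Cd74 (5.00, adjusted p = 1.3e-11) and in Cxcl2 (13.75, adjusted p = 3.29e-10). Other genes that were higher in the cornea than in the brain were higher still in the monocytes, with log2 fold changes of cornea over marrow of -5.62 for Ccr2, -7.16 for Plac8, -4.52 for C3, -3.05 for F13a1, -1.84 for S100a6, -1.56 for Lyz2 and -0.76 for Ahnak, all called. All these tests come from the fit on the 16 libraries and share the cornea or brain libraries with the main comparison.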

How the data were processed

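Bulk RNA-seq of 16 libraries, 4 per population, was used. The authors deposited whole-number counts per gene, made with CASAVA 1.8.2, Subread, featureCounts and limma on GRCm38.p4, per the submitters' processing notes, which give no order or further versions. The labels' extraction text describes brainstem of another mouse line and a stranded kit, so kit and strand are uncertain, and antisense, overlapping and near-identical genes cannot be separated. Samples were grouped by source name, replicates were numbered by accession and lanes were read from the deposited count headers. Of 45664 entries, 16739 had no count, and 27 had symbols turned into dates (at most 0.223% of counts).

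Here, edgeR 4.0.16 (R 4.3.3, limma 3.58.1) fitted a quasi-likelihood model on all 16 libraries with filterByExpr (minimum count 10), TMM and population as the sole term, and the contrast of cornea minus brain was adjusted by Benjamini-Hochberg. SE is the log2 fold change over the root of F. CPM per kilobase uses the deposited gene lengths. A gene with no count in a population is given as at least a fold over a floor of 3 counts over the 4 libraries, and one with 1 to 3 counts as a ratio with an exact 95% interval, both covering counting error only. In simulated counts of 15754 genes, 100 genes were changed 2-fold and 100 by a log2 of 2, with all others unchanged. Of the first 40 and of the second 71 were called in the right direction, with 6 other calls. Far fewer genes were changed there than the 66.8% called here, so these numbers do not measure the power or the false calls of the real comparison.

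Genes named are the preset anchors of each list, its 3 largest and 3 smallest called changes, and up to 3 called against its majority. Added to these are the 12 largest changes each way at 50 CPM or more without overlap, outside the marker lists of other cells. The 10 highest per length are named too, and for other cells the anchors and the 3 highest. Not every gene so chosen is described, and some are not reported here. Tyrobp, H2-DMa, H2-DMb2, Rfx5, Rfxank, Rfxap, C1qa, Itgae, Snx22 and the cell cycle genes not called within lane 3 were named after their values were seen. Members and lists were chosen with earlier results of these data known. Alternatives were other scalings, no filter, DESeq2 1.42.0, other sets of libraries and the lane.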

Additional observations from a re-analysis of the deposited data

Results flagged for a closer look

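In some groups 1 of the 4 libraries lay apart from the other 3. This was looked for in 602 sets of 4 libraries by the gap to the nearest library over the whole range, set against Dixon's 95% critical value, and 59 sets met it, of which many hold single reads. For normally distributed values chance gives about 1 in 20. A set with reads in only 1 library always meets the rule, so the 59 sets cannot be compared with that rate. Cornea library 1 was the highest of its group for Krt12 (482 CPM, others 68.3 to 119), Krt5 (212 CPM, others 17.4 to 44), Slc2a5 (0.906 CPM, others 0 to 0.133) and Vegfa (335 CPM, others 136 to 155). Only cornea library 1 held reads of Ackr3 (0.793 CPM) and Sall3 (0.227 CPM). Cornea library 1 was the lowest of its group for Oas2 (95.1 CPM, others 139 to 142) and Tlr3 (3.96 CPM, others 10.9 to 12.1). Cornea library 2 was the highest of its group for Adam10 (163 CPM, others 151 to 152), Irf8 (238 CPM, others 160.2 to 171), Mlph (0.936 CPM, others 0 to 0.113) and Tlr12 (0.936 CPM, others 0 to 0.113). In cornea library 2 alone there were reads of Csmd3 (0.17 CPM). Cornea library 3 was the highest of its group for Fos (399.6 CPM, others 211 to 229), Itgae (1.77 CPM, others 0 to 0.133) and Plau (749 CPM, others 409.7 to 468). Reads of some genes were found in cornea library 3 alone, namely Ccr6 (0.0768 CPM). Cornea library 4 was the highest of its group for S100a8 (2.32 CPM, others 0 to 0.23), Tnip3 (1120.0 CPM, others 637 to 708) and the summed erythroid markers (0.995 CPM, others 0 to 0.0851). Only cornea library 4 held reads of Sall1 (0.398 CPM). Cornea library 4 was the lowest of its group for Ctsd (4019 CPM, others 5375 to 5553), Cxcl3 (635 CPM, others 1281 to 1409), Kcnk13 (138 CPM, others 186 to 195) and P2ry6 (103 CPM, others 125 to 128). Brain library 1 was the highest of its group for Cxcl1 (0.856 CPM, others 0 to 0.0724), Cxcl2 (2.65 CPM, others 0 to 0.198), Mki67 (5.22 CPM, others 1.93 to 2.48) and Top2a (3.77 CPM, others 0 to 0.609). In brain library 1 alone there were reads of Cd207 (0.0856 CPM), Cd93 (0.171 CPM), Clec4d (0.171 CPM), Clec4e (0.171 CPM), Dcn (0.343 CPM), Emp1 (0.0856 CPM), Fabp4 (0.0856 CPM), Il10 (0.0856 CPM), Il12b (0.171 CPM), Mmp13 (0.171 CPM), Serping1 (0.0856 CPM) and Spic (0.0856 CPM). Brain library 1 was the lowest of its group for Fcgr4 (7.88 CPM, others 14.3 to 15.1). Brain library 2 was the highest of its group for Ccna2 (1.22 CPM, others 0.495 to 0.599) and Oas2 (0.609 CPM, others 0.0856 to 0.145). Reads of some genes were found in brain library 2 alone, namely Adora2a (0.102 CPM), Cfb (0.203 CPM), Clec4n (0.102 CPM), Pgf (0.102 CPM) and S100a8 (1.42 CPM). Brain library 3 was the highest of its group for Ccnd2 (0.693 CPM, others 0 to 0.102), Ciita (1.09 CPM, others 0 to 0.102), Hbb-bs (18 CPM, others 0.102 to 0.771) and the summed erythroid markers (47.6 CPM, others 0.406 to 2.83). Brain library 3 was the lowest of its group for Nr4a1 (0.693 CPM, others 2.54 to 2.68). Brain library 4 was the highest of its group for Cd74 (56 CPM, others 35.1 to 38.3), Ctsf (398 CPM, others 366 to 367) and Gla (9.05 CPM, others 2.48 to 3.42). Only brain library 4 held reads of Cxcr4 (0.145 CPM) and Lyve1 (0.0724 CPM). The high epithelial keratins of cornea library 1 stand beside its summed epithelial markers, the highest of the group, and their part in other values of that library was not tested.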

How the results depend on the processing

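Of 289 genes checked, 247 kept direction and side of the threshold in all 17 alternatives that gave a value. The genes higher and lower numbered 5080 to 5299 and 4991 to 5195 when each replicate was left out in turn, 4119 to 4285 and 3971 to 4157 at 2-fold or more, and the calls summed over lists 509 to 514 and 195 to 203. With total counts only, 6206 genes were lower at least 2-fold in place of 4024, and keratocyte markers averaged 1715 CPM in the cornea in place of 2477. That scaling turned the log2 fold changes of Fcer1g (-0.058), Itgb2 (-0.35), Kcnk13 (-0.53), Mfge8 (-0.086) and Pdgfb (-0.11) negative, and Tap1 (-0.98), Jun (-0.93), Fcgr2b (-0.83), Nrp1 (-0.87), Sema4d (-0.81) and C1qb (-1.52) became called lower. Perp was at -0.85 with the lane as a term and -0.91 within lane 3, where Kif20a (-0.77) and Mcm2 (-0.43) turned negative, Ly6c2 (-4.83) and Cenpf (-4.66) were called lower and C1qc was not (-1.23). The cause of these changes was not tested.

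Some list counts moved by more than 1.5 times. With total counts only, lower calls went from 5 to 11 for MHC class I, 2 to 4 for immediate-early, 2 to 5 for complement, 3 to 7 for sterol, 4 to 7 for disease-associated microglia, 1 to 3 for interferon-stimulated, 3 to 6 for cell cycle and 8 to 13 for glycolysis genes, and higher calls from 6 to 3 for uptake, 7 to 4 for Fc receptor, 16 to 10 for sterol and 9 to 5 for integrin genes. Within lane 3, lower calls went from 8 to 4 for MHC class II, 5 to 3 for MHC class I and 3 to 5 for sterol genes. No paired analysis was possible because the replicate numbers only follow the order of accessions. Precision is limited for genes with few reads in 1 population.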
